A study of Mus musculus with 12 samples.

Results

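CIITA and 6 genes of the MHC class II presentation pathway were followed in CT26 cells: CD74, H2-AA, H2-AB1, H2-EB1, H2-DMA and H2-DMB1. These 7 genes were chosen by name, for their place in the pathway, from the 23636 gene symbols that were measured, and all 7 were found. CT26, a line grown from a mouse colon carcinoma, was the source of all groups. The cells were left without treatment (No treatment) or were treated for 8 h with recombinant CX3CL1 at 2 µg/ml (CX3CL1), with IFN-γ at 100 ng/ml (IFN-γ) or with both proteins (CX3CL1+IFN-γ). The CX3CL1 dose and the time are those of the study's methods and the IFN-γ dose that of a figure legend. The sample labels give the treatment only. The paper's results text describes cells given IFN-γ and TNF-α before CX3CL1, while the legend and the labels name no TNF-α. Each of the 4 groups had 3 biological replicates, numbered 1 to 3, which gave 12 libraries. CX3CL1 is a chemokine that binds the receptor CX3CR1, and IFN-γ is a cytokine of activated T cells and NK cells.

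MHC class II molecules are pairs of an alpha and a beta chain that present peptides to CD4+ T cells. In antigen-presenting cells the pair is assembled on the invariant chain, encoded by CD74, which fills the peptide groove until cathepsins cut it down to a short remnant. The DM heterodimer then exchanges this remnant for a peptide. The transcription of these genes depends on CIITA, a co-activator with no DNA binding of its own that docks on RFX, CREB and NF-Y proteins at the X and Y boxes of class II promoters. Many cells outside the immune system make little CIITA unless IFN-γ induces it, in part through the transcription factor IRF1.

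Promoter sequences were searched for letters of the X and Y boxes. The 250 bases upstream of the RefSeq start sites (mouse build GRCm38.p6) were held for 4 of the 7 genes, and they are shown because the genes differed in these letters. Sequences run 5′ to 3′ on the strand of the gene, and capitals mark exact matches to the Y box core GATTGG, on either strand, and to the looser X1 box GNNACNGAT. H2-AA lies at chr17:34287824-34288073 (minus strand), H2-EB1 at chr17:34305617-34305866, H2-DMB1 at chr17:34152941-34153190 and H2-DMA, at the first of its 2 listed start sites, at chr17:34122582-34122831 (plus strand for these 3 genes).
H2-AA: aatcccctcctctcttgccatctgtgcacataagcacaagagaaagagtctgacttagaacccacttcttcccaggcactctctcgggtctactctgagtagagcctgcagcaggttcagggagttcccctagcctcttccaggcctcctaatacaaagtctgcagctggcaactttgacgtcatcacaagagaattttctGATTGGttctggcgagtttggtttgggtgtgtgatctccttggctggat
H2-EB1: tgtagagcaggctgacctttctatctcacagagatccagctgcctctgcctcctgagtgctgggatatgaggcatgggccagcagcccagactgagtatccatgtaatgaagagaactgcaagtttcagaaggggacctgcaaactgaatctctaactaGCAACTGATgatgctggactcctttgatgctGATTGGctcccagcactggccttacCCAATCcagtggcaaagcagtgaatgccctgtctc
H2-DMB1: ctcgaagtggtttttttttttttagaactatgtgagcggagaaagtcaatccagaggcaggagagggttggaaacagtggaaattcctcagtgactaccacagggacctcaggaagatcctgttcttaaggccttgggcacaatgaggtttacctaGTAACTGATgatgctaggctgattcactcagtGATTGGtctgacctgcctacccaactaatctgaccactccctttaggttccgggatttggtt
H2-DMA: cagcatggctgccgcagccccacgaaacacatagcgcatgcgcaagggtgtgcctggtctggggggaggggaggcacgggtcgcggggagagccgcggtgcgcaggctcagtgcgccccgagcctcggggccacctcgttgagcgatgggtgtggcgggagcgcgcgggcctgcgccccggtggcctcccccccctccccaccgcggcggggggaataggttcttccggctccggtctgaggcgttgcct

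H2-EB1, a beta chain, and H2-DMB1, the beta chain of DM, each held the looser X1 box followed by the Y box core. In H2-EB1 the X1 match lay 91 to 83 bases before the start site and the Y match 60 to 55 bases before it, and the core also occurred on the opposite strand 35 to 30 bases before the start. In H2-DMB1 these matches lay at 94 to 86 and at 62 to 57 bases before the start. H2-AA, an alpha chain, held the Y core 49 to 44 bases before its start and no match to the looser X1 box. No motif of the CREB proteins was searched for in any promoter. The missing X1 match therefore does not show that H2-AA lacks the X box. The printed H2-DMA promoter held neither. The one at its second listed start site held the Y core, 199 to 194 bases before that start. Which of these start sites CT26 cells use was not tested, and H2-DMA also overlaps Brd2 on the opposite strand. The lack of boxes at the first site was therefore not read as a trait of the gene. Of 32851 mouse promoters of the same length, 14.6% held the Y core, 6.53% the looser X1 box and 1.1% both. The X1 box AGCAACAG (in 1.83% of promoters), the GAS element TTCNNNGAA (7.02%), the IRF element GAAANNGAA (7.13%) and the E box CACGTG (6.02%) had no exact match on either strand in the 4 printed sequences, and no printed matches overlapped. The letters are those of the reference build, and the DNA of CT26 was not read. A match of letters is not a binding site, and no protein was measured on this DNA.

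Expression was read as TPM, a transcript level that is corrected for gene length and scaled to the same total in every library. TPM carry no read depth, so a listed 0 has no known detection limit. RPL26, a ribosomal protein gene picked after its values were seen, was also listed at 0 in all 12 libraries, and a 0 was therefore read only as listed. In bulk RNA, fewer cells with a transcript and less of it per cell cannot be told apart. Defining epithelial genes were checked against the carcinoma label. EPCAM, the epithelial adhesion molecule, was listed at 0 in all 12 libraries and CDH1 reached 0.0430 TPM, while the keratin KRT18 was at 18.4 to 53.6 TPM and the mesenchymal filament VIM at 1684 TPM or more. Of 12 leukocyte markers, 1 had a mean of at least 1 TPM, the lysosomal protein CD68. PTPRC, the pan-leukocyte antigen, did not exceed 0.0441 TPM and the T cell gene CD3E was listed at 0 throughout.

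CIITA, the regulator, was near 0 in every library after 8 h of IFN-γ. It was listed at 0 in all 3 No treatment libraries and at 0, 0.0103 and 0 TPM in CX3CL1 replicates 1, 2 and 3. In IFN-γ the values were 0, 0.00656 and 0.0130 TPM. In CX3CL1+IFN-γ they were 0, 0.0208 and 0.0259 TPM. CIITA was above 0 in 4 of 6 libraries with IFN-γ and in 1 of 6 without it, and the 2 sets overlapped at 0. Set against the library without IFN-γ of the same replicate number, it was higher in 4 of 6 pairs and equal in 2 (exact two-sided sign-flip test over the 3 replicate numbers, p = 0.5, where 3 numbers allow no p under 0.25). CIITA was listed at 0 in replicate 1 of all 4 groups, so for CIITA this sign-flip test could give no p under 0.5. CIITA (GENCODE M21, chr16:10480059-10528418) shares 25888 bases with Dexi on the opposite strand, at 6.29 to 12.4 TPM. The libraries were made strand-specifically, and the strand setting of the counting is not given in the sources used here.

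The alpha and beta chains were also near 0. H2-AA was listed at 0 in all 6 libraries without IFN-γ. It was at 0.0464, 0.0896 and 0.0443 TPM in IFN-γ and at 0.0397, 0 and 0.0443 TPM in CX3CL1+IFN-γ. The IFN-γ group thus stood above all libraries without IFN-γ, while CX3CL1+IFN-γ overlapped them through replicate 2. H2-AA was higher with IFN-γ in 5 of 6 same-number pairs and equal in 1 (exact two-sided sign-flip test, p = 0.25). Its partner H2-AB1 was listed at 0 in all 12 libraries. The study grew CT26 tumors in BALB/cJ mice and aligned reads to the mouse build mm10. Whether the CT26 alleles of the alpha and beta chains match that build, so that their reads map, was not tested.

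H2-EB1, the beta chain of the second class II molecule, showed no order by group. It was at 0.0735, 0.04997 and 0 TPM without treatment, at 0, 0 and 0.0251 TPM in CX3CL1, at 0.0845, 0 and 0 TPM in IFN-γ and at 0 in all CX3CL1+IFN-γ libraries. The groups overlapped, and H2-EB1 was higher with IFN-γ in 1 pair, lower in 2 and equal in 3 (exact two-sided sign-flip test, p = 0.5). H2-AA, H2-AB1 and H2-EB1 together came to 0.131 TPM at most in any library.

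The DM genes, which edit the bound peptide, differed in level from each other. H2-DMA, the alpha chain, was at 2.35, 1.86 and 2.59 TPM without treatment and at 2.41, 1.92 and 2.19 TPM in CX3CL1. It was at 2.71, 2.18 and 2.04 TPM in IFN-γ and at 2.45, 2.57 and 2.21 TPM in CX3CL1+IFN-γ. All 4 groups overlapped, within 1.86 to 2.71 TPM. H2-DMB1, the beta chain with which H2-DMA pairs, was at 0.153, 0 and 0 TPM without treatment, at 0.0669, 0 and 0.0746 TPM in CX3CL1+IFN-γ and at 0 in the other 6 libraries. So the alpha chain was above 1 TPM in each library and the beta chain in none. H2-DMA (GENCODE M21, chr17:34119541-34139101) shares 3094 bases with Brd2 on the opposite strand, at 120.4 to 188 TPM, and reads of the 2 genes cannot be told apart there if counting ignored strand.

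CD74, the invariant chain, was the member with the widest range, from 0.0919 to 13.7 TPM. Without treatment it was at 1.76, 0.0919 and 0.753 TPM in replicates 1, 2 and 3, and in CX3CL1 at 2.83, 0.158 and 0.891 TPM. In IFN-γ it was at 13.7, 1.23 and 5.44 TPM, and in CX3CL1+IFN-γ at 12.5, 2.06 and 5.27 TPM. As groups, the libraries with and without IFN-γ overlapped, because replicate 2 with IFN-γ lay below replicate 1 without it. Within each replicate number they did not overlap.

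**Figure D1:**
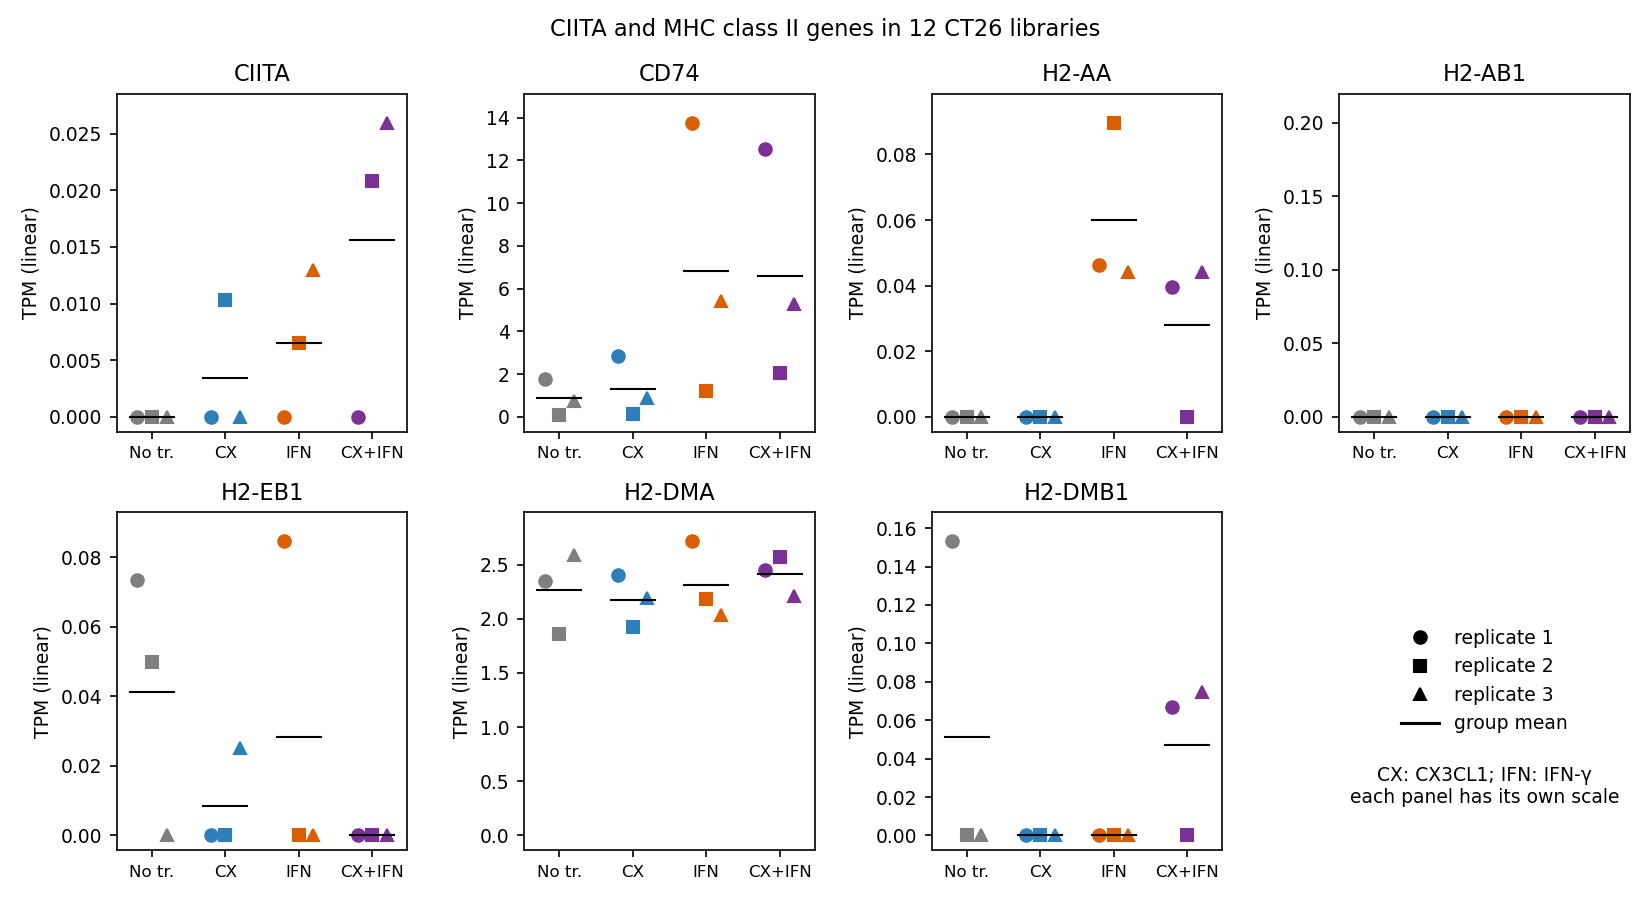
Level in TPM (linear axis, a separate scale in each panel) of the 7 genes in the 12 libraries, by group, with a symbol for each replicate number and a line at the group mean. CD74 spans 0.0919 to 13.7 TPM and H2-DMA 1.86 to 2.71 TPM, and the other 5 genes do not exceed 0.153 TPM.

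The order of levels in the IFN-γ group was CD74, H2-DMA and then the 5 genes near 0. CD74 and H2-DMA were neighbours whose values overlapped, since CD74 was above H2-DMA in replicates 1 and 3 and below it in replicate 2. The TPM ratio of CD74 to H2-DMA was 5.06, 0.566 and 2.67 in IFN-γ replicates 1, 2 and 3, against 0.747, 0.0495 and 0.291 without treatment. Class I heavy chains stood far above both, with H2-K1 at 1203, 918 and 1122 TPM in the same IFN-γ libraries.

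The question of the first comparison was what IFN-γ changed in class II genes. Tests ran on log2(TPM + 1) with limma over the 11878 genes whose mean over the 12 libraries was at least 0.2 TPM, and a gene was called at a Benjamini-Hochberg adjusted p under 0.05. Only 2 of the 7 members, CD74 and H2-DMA, reached that mean. For the other 5 the values above stand as a description. IFN-γ against No treatment called 7.85% of all genes tested (932, and from 536 without No treatment replicate 3 to 1499 without CX3CL1 replicate 2) and 0 of the 2 members. CX3CL1+IFN-γ against CX3CL1 called 4.7% of all genes (558, and from 268 without CX3CL1+IFN-γ replicate 3 to 667 without CX3CL1 replicate 2) and 0 of the 2 members.

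CD74 was higher with IFN-γ than without in all 6 same-number pairs (exact two-sided sign-flip test over the 3 replicate numbers, p = 0.25, the smallest that 3 numbers allow). The TPM ratio of IFN-γ to No treatment was 7.82, 13.4 and 7.22 in replicates 1, 2 and 3. The ratio of CX3CL1+IFN-γ to CX3CL1 was 4.42, 13.1 and 5.92. On the log2(TPM + 1) scale the difference was 1.78 ± 0.68 (SE) for IFN-γ against No treatment, with a limma adjusted p of 0.142 and a 95% interval of 0.31 to 3.24. For CX3CL1+IFN-γ against CX3CL1 it was 1.65 ± 0.68, with an adjusted p of 0.216. This scale understates the change of a gene with low TPM.

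The 2 calls turned on the replicate number. With the number as a block in the fit, the differences of CD74 stayed at 1.78 and 1.65, their SE fell to 0.20 and the limma adjusted p became 1.85e-04 and 5.61e-04. The 95% intervals were then 1.32 to 2.23 and 1.20 to 2.10. The blocked fit also called more genes, 16.2% and 11.5% of those tested, and H2-DMA stayed uncalled. The labels do not say what libraries with the same number share, and the pairing rests on the way their values deviated together over all genes. Without IFN-γ replicate 2, the lowest of its group, the fit with no block called CD74 at a difference of 2.48 (adjusted p = 0.0363), and without replicate 2 of every group at 2.15 (adjusted p = 0.0460).

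In every group replicate 1 had the highest CD74 level and replicate 2 the lowest. The highest was 19.1 times the lowest without treatment, 17.97 times in CX3CL1, 11.1 times in IFN-γ and 6.07 times in CX3CL1+IFN-γ. The residual SD of CD74 within groups was 1.03 on the log2(TPM + 1) scale, against a median of 0.168 over all genes tested, and 11 of the 11878 genes had a larger one. The replicate number took 93.3% of the residual variation of CD74, against 43.7% for the median gene and 35.9% for H2-DMA. With the number in the fit, the residual SD of CD74 was 0.306.

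**Figure D2:**
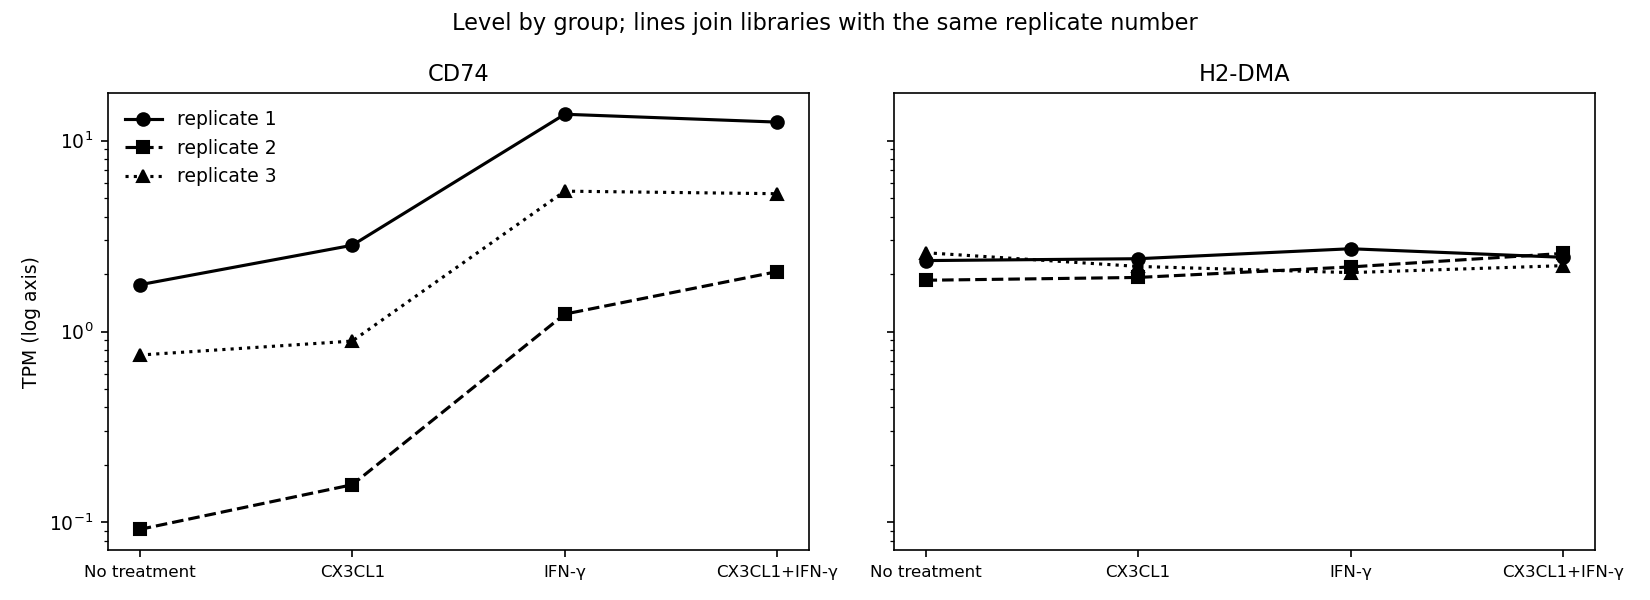
Level in TPM (log axis) of CD74 and H2-DMA in the 4 groups, with a line for each replicate number. The CD74 lines keep the order 1, 3, 2 in every group and each is higher in the groups with IFN-γ, and the H2-DMA lines cross between 1.86 and 2.71 TPM.

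**Figure D3:**
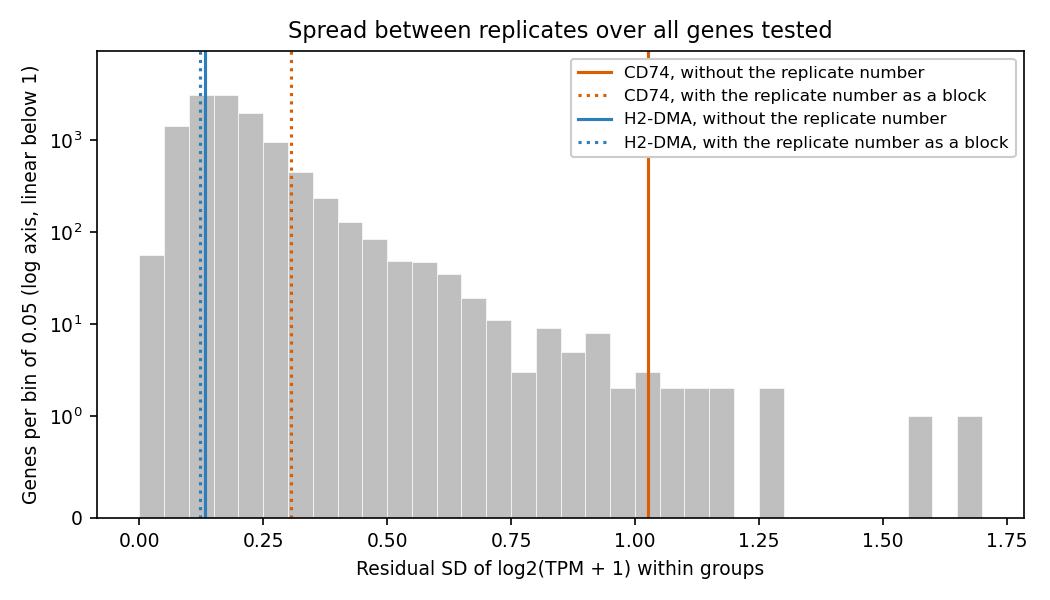
Number of genes (log axis, linear below 1) by residual SD of log2(TPM + 1) within groups, for the 11878 genes tested. Solid lines mark CD74 at 1.03 and H2-DMA at 0.132, and dotted lines mark them with the replicate number in the fit, at 0.306 and 0.122.

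The order of replicate numbers seen in CD74 was shared by other genes. Of the 11878 genes tested, 406 (3.42%) had replicate 1 highest and replicate 2 lowest in every group, among them the mesenchymal gene FN1, and 1849 (15.6%) had replicate 1 highest in every group, among them CTSD, a lysosomal protease, and the leukocyte marker CD68. The summed level of the 12 leukocyte markers, most of it CD68, was 17.96, 9.50 and 11.7 TPM in No treatment replicates 1, 2 and 3 and 20.4, 12.1 and 9.86 TPM in IFN-γ. It was 22.3, 9.93 and 8.78 TPM in CX3CL1 and 27.6, 10.9 and 10.4 TPM in CX3CL1+IFN-γ. Replicate 1 was thus highest in each group, as for CD74, and the full order of CD74 was found in No treatment. Without CD68 and the lysozyme gene LYZ2, the other 10 markers summed to 0.166 to 0.553 TPM and had no common order. CD68 did not pass the test with IFN-γ (0.17 ± 0.41, adjusted p = 0.857, limma). PTPRC was listed at 0 in replicate 1 of every group. Whether leukocytes were present and had a part in the CD74 values was not tested.

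H2-DMA differed by 0.02 ± 0.12 (SE, log2) between IFN-γ and No treatment (limma, adjusted p = 0.94), with a 95% interval of −0.24 to 0.28. Between CX3CL1+IFN-γ and CX3CL1 it differed by 0.11 ± 0.12 (adjusted p = 0.719), with an interval of −0.16 to 0.37. Under quantile normalization the H2-DMA differences were −0.13 and −0.06, also uncalled, so no direction was assigned to them.

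For the genes under the mean of 0.2 TPM, a fit with no filter could be made for 4 more members over 16889 genes. H2-AA then had a limma adjusted p of 0.0359 in IFN-γ against No treatment and of 0.385 in CX3CL1+IFN-γ against CX3CL1. H2-AA entered this fit through its IFN-γ libraries alone and was set against a group listed at 0, so its p was not taken as a call and no fold was computed. CIITA was not called (0.01 ± 0.01, adjusted p = 0.733). H2-AB1 was at 0 throughout and could not be tested.

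The second question was whether CX3CL1 changed class II genes, alone or beside IFN-γ. CX3CL1 against No treatment called 1.95% of all genes and 0 of the 2 members, and CX3CL1+IFN-γ against IFN-γ called 0.362% and 0 of 2. CD74 in CX3CL1 was 1.61, 1.71 and 1.18 times its No treatment level in replicates 1, 2 and 3, a log2 difference of 0.22 ± 0.68 (limma, adjusted p = 1, 95% interval −1.24 to 1.69). In CX3CL1+IFN-γ it was 0.910, 1.67 and 0.970 times its IFN-γ level, a log2 difference of 0.10 ± 0.68 (adjusted p = 0.994, interval −1.37 to 1.56). With the replicate block these intervals narrowed to −0.23 to 0.67 and −0.36 to 0.55, and neither comparison was called. The block was 1 term over all 4 groups, so its fit takes CX3CL1 and No treatment as paired by number too. The deviations of these 2 groups alone were not read as showing that pairing, so the first blocked interval is given with that limit. Effects of CX3CL1 on CD74 inside these intervals were not excluded.

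The IFN-γ effect on CD74 with CX3CL1 present, less that without it, was −0.13 ± 0.95 (log2, limma adjusted p = 1). This interaction called 0% of all genes and 0 of the 2 members, with 273 of the 11878 genes tested at an unadjusted limma p under 0.05. That share is smaller than the 0.05 expected if no gene had an interaction. The replicate block called 0.438% of genes, and neither member. H2-DMA gave −0.04 ± 0.12 for CX3CL1 against No treatment and 0.05 ± 0.12 for CX3CL1+IFN-γ against IFN-γ, both uncalled (limma, adjusted p = 1 and 0.984).

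The other class II genes resembled H2-AA and H2-AB1 in level. H2-OA, the alpha chain of the DM inhibitor DO, was listed at 0 in all 6 libraries without IFN-γ, at 0.205, 0.148 and 0.0978 TPM in IFN-γ and at 0.263, 0 and 0.0978 TPM in CX3CL1+IFN-γ. The IFN-γ group stood above all libraries without IFN-γ, and CX3CL1+IFN-γ overlapped them at 0. H2-OA was not called in the fit with no filter (difference of 0.20 ± 0.07, limma adjusted p = 0.142). Its partner H2-OB did not exceed 0.0213 TPM. H2-DMB2, H2-EB2 and H2-EA-PS were listed at 0 in all libraries, and H2-EA was not matched by symbol.

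Transcripts of the proteins on which CIITA docks were listed above 0 in all groups. RFX5, the RFX subunit mutated in a form of bare lymphocyte syndrome, was at 3.98, 3.79 and 3.49 TPM without treatment and at 5.31, 6.22 and 10.8 TPM in IFN-γ. The groups did not overlap. It rose by 0.78 ± 0.20 (log2, limma adjusted p = 0.0321). RFX5 was the 1 of 7 genes of this set that was called, beside 7.85% of all genes tested. The call was lost without any 1 of the 3 No treatment libraries or IFN-γ replicate 3 (adjusted p = 0.0639, 0.084, 0.126 and 0.106), and under quantile normalization (0.103), no filter (0.0796) and a fit of only the libraries compared (0.0506), and without any 1 replicate number in every group (0.0652 to 0.331). In CX3CL1+IFN-γ against CX3CL1 the difference was 0.46 ± 0.20 (adjusted p = 0.256). The NF-Y subunits NFYA, NFYB and NFYC, the RFX subunits RFXAP and RFXANK and the factor CREB1 ranged from 2.22 TPM (RFXANK) to 59.8 TPM (NFYA), and none was called in either IFN-γ comparison. The median difference of the 7 genes in IFN-γ against No treatment was 0.05, beside 0.03 over all genes tested.

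In the IFN-γ signal that leads to CIITA, IRF1, a transcription factor of the interferon response, was at 20.5, 18.7 and 19.4 TPM without treatment and at 78.7, 77.6 and 166 TPM in IFN-γ, and the groups did not overlap. IRF1 rose by 2.31 ± 0.28 (log2, limma adjusted p = 1.52e-04), and this call held in all 24 alternatives.

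IFN-γ against No treatment called 7.85% of all genes tested. Of the 7 genes of this signal that are reported, 3 rose in that comparison, and none fell. Beside IRF1 these were SOCS1, the feedback inhibitor of JAK kinases (0.97 ± 0.25, adjusted p = 0.0327), and USF1, which binds an E box of a CIITA promoter (0.60 ± 0.15, adjusted p = 0.0242). The SOCS1 call was lost without No treatment replicate 1, 2 or 3 or IFN-γ replicate 3 (adjusted p from 0.0611 to 0.146), and under median-ratio scaling (0.0558), quantile normalization (0.0655) and no filter (0.0825), and without replicate 1 or 2 of every group (0.118 and 0.119). The USF1 call was lost without No treatment replicate 2 or 3 or IFN-γ replicate 1 or 3 (0.0755 to 0.117), or replicate 1 or 3 of every group (0.134 and 0.351). The receptor chains IFNGR1 and IFNGR2 and the kinases JAK1 and JAK2 were not called, at differences of −0.14, 0.49, 0.06 and −0.04. With the replicate block IFNGR2 was called (adjusted p = 0.00546). In CX3CL1+IFN-γ against CX3CL1, IRF1 rose by 1.57 ± 0.28 (adjusted p = 0.00573), and this call was lost without replicate 1 of every group (adjusted p = 0.0734). With the replicate block SOCS1 and USF1 were called there as well (adjusted p = 0.00939 and 0.00351). The median difference of the 7 genes with IFN-γ was 0.49, beside 0.03 over all genes.

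IFN-γ against No treatment and CX3CL1+IFN-γ against CX3CL1 called 7.85% and 4.7% of all genes tested. Among proteases and other genes of class II antigen processing, 1 of the 7 tested rose in each of these comparisons. This was CTSS, cathepsin S, which makes the last cuts in the invariant chain. CTSS was at 0.142, 0.0322 and 0 TPM without treatment and at 0, 0.0552 and 0.0970 TPM in CX3CL1. It was at 1.56, 0.701 and 0.866 TPM in IFN-γ and at 1.74, 0.778 and 1.52 TPM in CX3CL1+IFN-γ, so that no library with IFN-γ overlapped one without it. The differences were 0.93 ± 0.17 and 1.14 ± 0.17 (log2, limma adjusted p = 0.00468 and 0.00231). CTSS passed the filter on low values only through its IFN-γ libraries. It was also called with no filter, and of 23 alternatives, a minimum difference of 1 aside, the one without replicate 3 of every group lost both calls (adjusted p = 0.134 and 0.106).

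CTSL, the cathepsin with the same role in thymic epithelium, was abundant in all groups at 1508 TPM or more, and was not called (0.28 ± 0.11, adjusted p = 0.17). CTSB was not called either (0.38 ± 0.15, adjusted p = 0.16), and the replicate block added it to the calls of both comparisons (adjusted p = 0.019 and 0.0467). IFI30, the thiol reductase GILT, was at 154 to 259 TPM and CTSD, LGMN and SPPL2A were also uncalled. The ubiquitin ligases MARCH1 and MARCH8, which remove class II from the surface, could not be matched, since 26 symbols of the table had been turned into dates. The median difference of the 7 genes was 0.26 with IFN-γ, beside 0.03 over all genes.

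Class I genes were read in the same libraries. NLRC5, the relative of CIITA that drives class I transcription, was at 2.07, 1.45 and 1.62 TPM without treatment and at 9.85, 10.5 and 20.8 TPM in IFN-γ, with no overlap. It rose by 2.37 ± 0.31 (log2, limma adjusted p = 2.9e-04), and by 1.75 ± 0.31 in CX3CL1+IFN-γ against CX3CL1 (adjusted p = 0.0057). All 9 class I genes tested rose in IFN-γ against No treatment, which called 7.85% of all genes tested. These included the heavy chains H2-K1 (2.11) and H2-D1 (1.96), the light chain B2M (1.80) and the peptide transporter TAP1 (2.80). The TAP2 call (1.90) was lost without replicate 3 of every group (adjusted p = 0.24). In CX3CL1+IFN-γ against CX3CL1, which called 4.7% of all genes tested, 8 of the 9 rose. The replicate block added the transporter subunit TAP2 (1.19, limma adjusted p = 3.68e-04). Of these 8, the calls of NLRC5 (adjusted p = 0.0527, without replicate 1 of every group) and of B2M, H2-K1 and H2-D1 (0.188, 0.0738 and 0.172, without replicate 3 of every group) were lost. The median of the 9 genes was 2.37 with IFN-γ, beside 0.90 for the 2 class II members that could be tested and 0.03 over all genes. On the log2(TPM + 1) scale CD74, at 1.78, lay beside B2M, the lowest of the 9. That scale understates the change of a gene with low TPM, such as CD74. With the replicate block and a pseudocount of 0.1 CD74 was at 2.80. B2M reached 1.91 at most over the alternative settings that kept every replicate. Whether class I and class II genes differed in response was not tested.

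**Figure D4:**
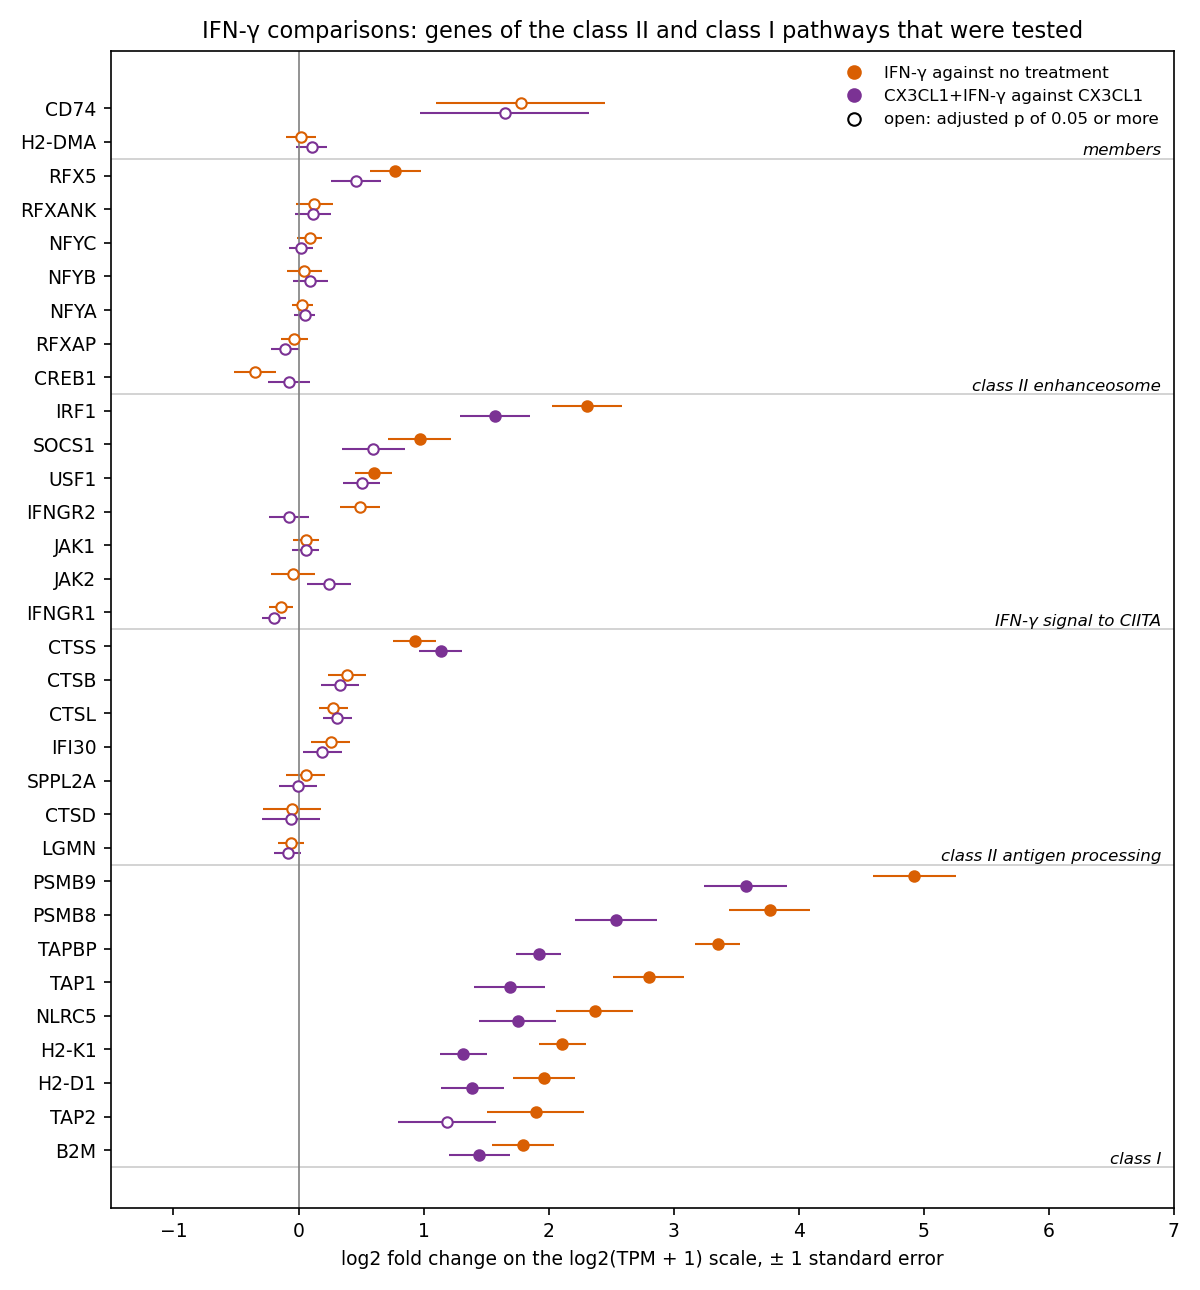
Log2 fold change on the log2(TPM + 1) scale with 1 standard error, for the tested genes of 5 lists, in IFN-γ against No treatment and in CX3CL1+IFN-γ against CX3CL1, from the fit with no block. Filled points have an adjusted p under 0.05: the 9 class I genes in IFN-γ against No treatment, but neither CD74 nor H2-DMA.

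For co-stimulation, which CD4+ T cells need beside class II, CD80 was at 12.4 to 21.3 TPM and was not called with IFN-γ (0.13 ± 0.15, limma adjusted p = 0.681). CD86 did not exceed 0.0329 TPM, CD40 0.312 TPM and ICOSL 0.162 TPM. The inhibitory ligand CD274, PD-L1, rose by 2.97 ± 0.43 with IFN-γ (adjusted p = 0.00066) and by 2.47 ± 0.43 in CX3CL1+IFN-γ against CX3CL1, where the call was lost without replicate 1 of every group (adjusted p = 0.0695).

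The genes whose pattern was most like CIITA over the 12 libraries were TM4SF4, ERCC6L, ASB13, AFTPH and PLEKHF2, with Pearson r of log2(TPM + 1) from 0.897 to 0.903. CIITA itself lay between 0 and 0.0259 TPM, so this likeness rests on 5 libraries above 0. The same measure was 0.67 between CIITA and RFX5, 0.61 with NLRC5, 0.09 with CD74 and −0.14 with H2-DMA. These libraries share groups and replicate numbers, and the values are a description.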

How the data were processed

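RNA sequencing of 12 CT26 libraries was used, in 4 groups of 3 biological replicates named by the labels. The authors made strand-specific mRNA libraries and, per the submitters' processing notes, used STAR 2.7.3a, DESeq2 1.22.1 and mm10. The deposited values are TPM, scaled by the authors to 1000000 in each library; how they were derived and the gene annotation are not given in the sources used here. Gene counts were not used here, so DESeq2 was not run and the depth of each library is unknown. Precision is given by the spread between replicates.

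Genes were tested in R 4.3.3 with limma 3.58.1 (lmFit, then eBayes with its intensity trend). Values entered as log2(TPM + 1), that is with a pseudocount of 1. The fit had a filter of a mean of at least 0.2 TPM (11878 genes) and all 12 libraries in 1 fit with no block. P-values were adjusted by Benjamini-Hochberg over all genes tested within each of 5 comparisons, with a threshold of 0.05. An exact permutation test of 3 libraries against 3 cannot give p under 0.1. The sign-flip test took the mean of the 2 differences with the same replicate number (3 numbers, 8 sign patterns), was added after seeing the data and was not adjusted over the 6 members with a value. Tables were prepared in Python with pandas 2.3.3. Positions came from GENCODE M21 and promoters from RefSeq (GRCm38.p6).

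The members and lists were chosen with earlier results of these data known. Named were the 7 members, listed genes called in an IFN-γ comparison or counted, and the 5 genes most like CIITA. Some listed or ranked genes are not reported here. Lists covered class II genes, the proteins CIITA docks on, IFN-γ signal, antigen processing, co-stimulation, class I, and leukocyte, epithelial and mesenchymal markers.

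Same-numbered libraries deviated together from their group means over all genes, with correlations of 0.429, 0.46 and 0.22 for IFN-γ and No treatment, 0.351, 0.353 and 0.428 for CX3CL1+IFN-γ and CX3CL1, and 0.63, 0.635 and 0.649 for CX3CL1+IFN-γ and IFN-γ. The numbers were read as pairing these groups, and the blocked value is given where it changes the call of a gene named. For CX3CL1 and No treatment (0.387, 0.00472 and 0.301) they were not read so from these values. The blocked fit and the sign-flip test nevertheless join all 4 groups by number.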

Additional observations from a re-analysis of the deposited data

How the results depend on the processing

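The count of the 7 members called was 0 in all 5 comparisons with the settings reported. In IFN-γ against No treatment it became 1 with the replicate block, with the block and a pseudocount of 0.1, without IFN-γ replicate 2 and without replicate 2 of every group (CD74 in each), and 1 with no filter on low TPM (H2-AA, set against a group listed at 0); leaving out single libraries gave 0 to 1. In CX3CL1+IFN-γ against CX3CL1 it became 1 with the replicate block, alone or with a pseudocount of 0.1 (CD74), and stayed at 0 when single libraries were left out. The fits with a pseudocount of 0.1 and the block, and those without a replicate number, were added after seeing the data. In the other 3 comparisons the count was 0 under every alternative run.

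Leaving out single libraries, the CD74 difference ran from 1.12 to 2.48 for IFN-γ against No treatment (adjusted p 0.0363 to 0.445) and from 1.11 to 2.18 for CX3CL1+IFN-γ against CX3CL1 (0.110 to 0.584). With the block and a pseudocount of 0.1 the CD74 differences were 2.80 and 2.54 (adjusted p = 3.24e-06 and 2.93e-05).

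Over all genes, the replicate block called 1929 in place of 932 for IFN-γ against No treatment, 1369 in place of 558 for CX3CL1+IFN-γ against CX3CL1, 455 in place of 232 for CX3CL1 against No treatment, 95 in place of 43 for CX3CL1+IFN-γ against IFN-γ and 52 in place of 0 for the interaction. The split of higher and lower calls for IFN-γ against No treatment was 702 and 230, against 640 and 351 with median-ratio scaling and 556 and 536 with quantile normalization. Of 16 listed genes called in that comparison, 10 kept the call in every alternative that could be run, a minimum log2 difference of 1 aside, and of 11 in CX3CL1+IFN-γ against CX3CL1, 4 did. Leaving out single libraries, the counts over all genes ran from 536 (No treatment replicate 3; 550 without IFN-γ replicate 3) to 1499 (CX3CL1 replicate 2) in the first comparison and from 268 (CX3CL1+IFN-γ replicate 3) to 667 in the second. They ran from 152 to 268 for CX3CL1 against No treatment, from 16 (without CX3CL1+IFN-γ replicate 3) to 54 for CX3CL1+IFN-γ against IFN-γ and from 0 to 11 (without No treatment replicate 1) for the interaction. TPM hold no counts, so what depth limits for the genes near 0 is unknown.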

Other observations

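Among the genes whose levels were most like those of CD74 over the 12 libraries, picked after their values were seen, were KCNMA1, MAMDC2, GRINA and PLEKHM1, with Pearson r of log2(TPM + 1) from 0.975 to 0.988. KCNMA1, a potassium channel, lay between 0.0456 and 0.498 TPM and MAMDC2 between 0.0904 and 1.34 TPM. GRINA, a membrane protein, was at 217 to 719.8 TPM. For CTSS the same measure was 0.85, for NLRC5 0.73 and for H2-DMA 0.54. These values describe 12 libraries that share groups and replicate numbers.

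Of the marker lists, KRT18 was lower in IFN-γ than in No treatment (−0.68 ± 0.18 on the log2(TPM + 1) scale, limma adjusted p = 0.0346), and lost this call without any of 5 single libraries. The 3 mesenchymal genes VIM, FN1 and COL1A1 were not called. All 3 were called lower with the replicate block, which called 16.2% of all genes tested. None of the 3 leukocyte markers tested was called in either fit.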
